A study of Mus musculus with 12 samples.

Results

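The genes described here are 10 genes of T cells and natural killer (NK) cells, read in bulk RNA from subcutaneous allograft tumors. They are the T cell receptor subunits *Cd3e* and *Cd3g*, the coreceptors *Cd4* and *Cd8a*, the regulatory T cell factor *Foxp3*, the checkpoint receptors *Ctla4* and *Pdcd1*, and the cytotoxic genes *Gzmb*, *Prf1* and *Nkg7*. They were taken from a list by name. All 10 of the 10 genes listed were found among the 15687 genes measured.

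T cells recognize antigen through a T cell receptor that signals through the CD3 chains, and the coreceptors CD4 and CD8 divide them into helper and killer classes. Killer T cells and NK cells release perforin, which opens the target membrane, and granzymes, which enter and trigger cell death. Checkpoint receptors such as PD-1 and CTLA-4 restrain T cells after activation, and regulatory T cells, which depend on FOXP3, suppress other T cells within tumors.

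Tumors arose from mTc11, a mouse lung cancer cell line, injected with Matrigel under the skin of male C57BL6/J mice aged 8 weeks, which have an intact immune system, and were taken and frozen at day 24. The 6 CTL tumors came from cells carrying a control short hairpin RNA (shRNA, labelled shControl) and the 6 *Filip1l*-knockdown tumors from cells carrying an shRNA against *Filip1l*. Both were delivered by lentivirus with puromycin selection and kept as mixed clones, so that the hairpin was in the injected cells and not in the mouse's own T cells. The labels number the tumors of each group as biological replicates. The methods name more than 1 hairpin, and which of them was in the sequenced tumors is not given in the sources used here. RNA came from whole tumors, in which fewer cells of a type and less RNA per cell cannot be told apart. The groups are called CTL and knockdown tumors below. Values are normalized counts, the reads per gene divided by a size factor for each tumor.

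Each CTL library held 17834745 to 29502069 reads on the listed genes and each knockdown library 25460564 to 32419578. The targeted gene, *Filip1l*, had 2311 ± 211 normalized counts in the 6 CTL tumors and 1924 ± 165 (SD) in the 6 knockdown tumors. This was a log2 difference of -0.26 (limma adjusted p = 0.00998), and the groups overlapped. *Ptprc* (CD45), carried by nearly all leukocytes, was at 812 to 1297 normalized counts in CTL tumors and 864 to 2464 in knockdown tumors, where replicate 1 was the highest. A gene was called changed at a limma adjusted p under 0.05 and a log2 fold change over 1 in either direction, which 10.2% of all genes reached, 6.20% higher and 3.97% lower in knockdown tumors. Of 8 leukocyte genes 0 were called. Of 7 neutrophil genes 6 were called higher, as were 4 of 6 tumor epithelium genes and 7 of 8 skeletal muscle genes, with a summed muscle level of 2287 to 11982 in CTL tumors and 5127 to 88882 in knockdown tumors. The part of these other cells in the values below was not tested.

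None of the 10 genes passed the test for a difference between knockdown and CTL tumors. By the rule above 0 of the 10 were called, beside 10.2% of all genes, 0 had an adjusted p under 0.05, which 41.9% of all genes had, and 1 (*Foxp3*) had an unadjusted p under 0.05, which 49.1% of all genes had. In 0 of 10 did the groups fail to overlap, against 21.5% of all genes. Log2 fold changes were positive in 7 genes and negative in 3, with a median of 0.05 beside 0.01 over all genes. Their median size regardless of sign was 0.14 beside 0.25 over all genes. By edgeR's quasi-likelihood test on the whole reads of 9 tumors, 0 of 10 were called as well, beside 10.6% of all genes.

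**Figure D1:**
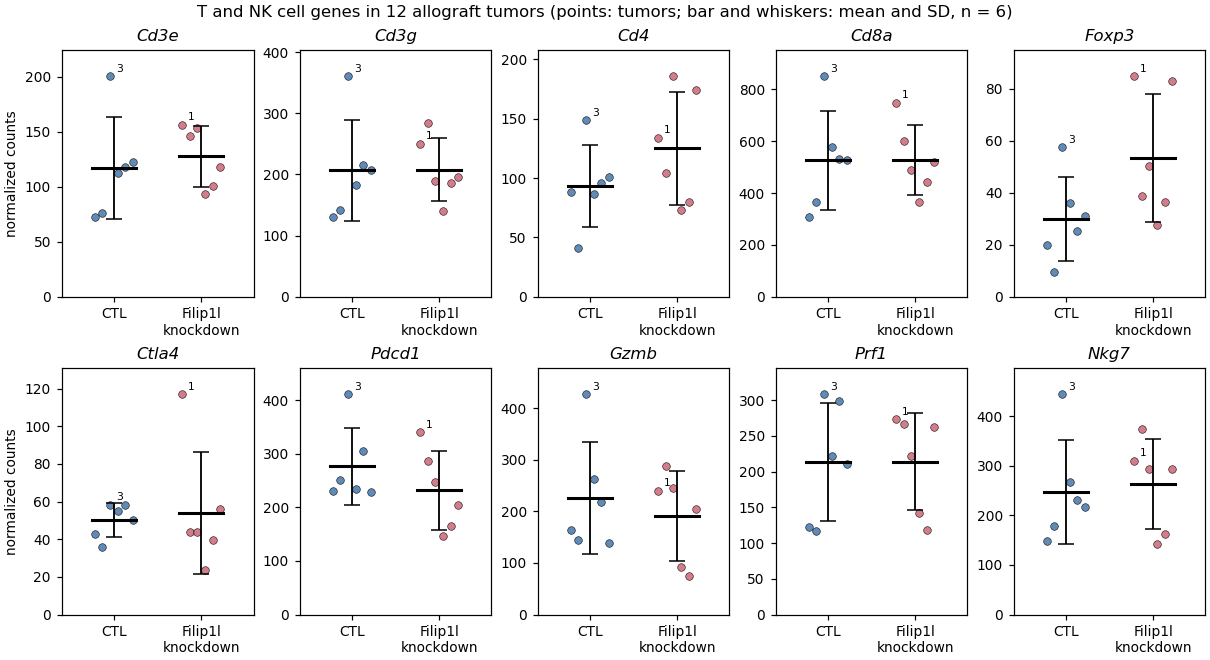
Normalized counts of each gene (vertical axis, from 0) in 6 CTL and 6 knockdown tumors, with 1 point per tumor and a bar and whiskers for the mean and SD. The groups overlap in all 10 panels, CTL replicate 3 (marked 3) is the highest CTL tumor in each, and knockdown replicate 1 is marked 1.

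*Cd3e* (ENSMUSG00000032093, chromosome 9) encodes the epsilon chain of CD3, which every mature T cell needs to place its receptor on the surface. Its lowest, median and highest values were 72.0, 115 and 200.3 normalized counts in CTL tumors and 93.0, 132 and 156 in knockdown tumors. The knockdown tumors lay inside the CTL range. On the log2 scale the fold change was 0.18, with a 95% interval from -0.32 to 0.68 (limma adjusted p = 0.565). *Cd3g* (ENSMUSG00000002033), the gamma chain, lies beside it on the same chromosome. It had 131, 196 and 361 normalized counts in CTL tumors and 140.0, 193 and 284 in knockdown tumors as lowest, median and highest. Again every knockdown tumor fell within the CTL range, and CTL replicate 3 stood far above the other CTL tumors, of which the nearest was at 215. For *Cd3g* the log2 fold change was 0.05, from -0.44 to 0.55 (limma adjusted p = 0.875). In the annotation, 135 of the 4080 exonic bases of *Cd3e* also belong to an antisense gene, *Gm48719*, and strand-specific counting is not stated.

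*Cd8a* (ENSMUSG00000053977, chromosome 6), a chain of the coreceptor of killer T cells, had the highest counts of the 10 genes, before any allowance for length. Its lowest, median and highest values were 309, 530.4 and 851 in CTL tumors and 365, 504 and 748 in knockdown tumors. The groups lay on top of each other, with a log2 fold change of 0.04, from -0.43 to 0.52 (limma adjusted p = 0.902). *Cd4* (ENSMUSG00000023274, chromosome 6), the coreceptor of helper and regulatory T cells and in some settings also present on macrophages and dendritic cells, was lower. It had 40.7, 91.8 and 149 normalized counts in CTL tumors and 73.4, 119 and 186 in knockdown tumors. Replicates 3 and 6 of the knockdown group, at 186 and 174, were above every CTL tumor, and the other 4 were inside the CTL range. For *Cd4* the log2 fold change was 0.42, from -0.22 to 1.06 (limma adjusted p = 0.281), so that the interval reached past the threshold of 1 on the higher side.

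*Foxp3* (ENSMUSG00000039521, chromosome X) is the transcription factor that defines regulatory T cells, and it was the gene with the largest difference of the 10. CTL tumors had 9.47, 28.1 and 57.4 normalized counts as lowest, median and highest, and knockdown tumors 27.4, 44.3 and 84.7. Replicates 1 and 6 of the knockdown group, at 84.7 and 83.0, lay above every CTL tumor, and 5 of 6 knockdown tumors lay above the CTL median. The log2 fold change was 0.88, from 0.04 to 1.72, which in folds is from 1.03 to 3.29. It passed neither limma over all genes (adjusted p = 0.0873) nor an exact permutation test, two-sided, with 924 arrangements of the tumors (p = 0.0693, where the smallest possible is 0.00216). Without CTL replicate 3, the highest CTL tumor, *Foxp3* would have been called, at a log2 fold change of 1.10 (limma adjusted p = 0.0319). When knockdown replicate 1, the tumor with the most *Ptprc*, was left out as well, it was 0.94 (limma adjusted p = 0.0564). Without CTL replicate 2 alone, the lowest CTL tumor, the log2 fold change was 0.60 (limma adjusted p = 0.184). The gene shares 590 of its 4577 exonic bases with *Ccdc22*, 266 with *Ppp1r3f* and 853 with the antisense gene *Flicr*, so that reads from these places are uncertain. *Ccdc22* was at 7.86 to 26.9 normalized counts over the 12 tumors, with a log2 fold change of -0.44 (limma adjusted p = 0.253), and *Ppp1r3f* at 17.5 to 48.4, with 0.01 (limma adjusted p = 0.978).

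*Ctla4* (ENSMUSG00000026011, chromosome 1) encodes an inhibitory receptor that binds the ligands of CD28 and is abundant on regulatory T cells. Its lowest, median and highest values were 36.0, 52.5 and 58.3 normalized counts in CTL tumors and 23.5, 43.8 and 117 in knockdown tumors. The spread differed more than the middle, since the knockdown tumors reached both lower and higher than the CTL tumors. knockdown replicate 1 alone was at 117, and the next knockdown tumor was at 55.9. The log2 fold change was -0.05, from -0.69 to 0.60 (limma adjusted p = 0.918), and -0.30 without that tumor (limma adjusted p = 0.304). *Pdcd1* (ENSMUSG00000026285, chromosome 1) encodes PD-1, which T cells show after activation and keep during chronic stimulation. It had 228, 244 and 411 normalized counts in CTL tumors and 147, 226 and 340 in knockdown tumors. Replicates 4, 5 and 6 of the knockdown group, at 147, 165 and 204, were below every CTL tumor. For *Pdcd1* the log2 fold change was -0.28, from -0.73 to 0.17 (limma adjusted p = 0.304).

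The 3 cytotoxic genes encode granzyme B, a protease of the killing granule, perforin, the pore protein of that granule, and NKG7, a granule membrane protein of NK and killer T cells. Their upstream sequences are shown because, of the 9 genes with a RefSeq promoter entry, these 3 and no other held the letters TGTGGT, the core of the motif of RUNX factors, which act in killer T cell development. Windows were the 250 bases before each start in GRCm38.p6, searched on both strands. Letters in capitals are TGTGGT or its reverse complement ACCACA, the ETS letters CAGGAAG or CTTCCTG, and the AP-1 letters TGANTCA, and the printed matches do not overlap. *Gzmb* is at chr14:56262335-56262584 on the minus strand, *Prf1* at chr10:61297586-61297835 on the plus strand and *Nkg7* at chr7:43436888-43437137 on the plus strand.
Gzmb: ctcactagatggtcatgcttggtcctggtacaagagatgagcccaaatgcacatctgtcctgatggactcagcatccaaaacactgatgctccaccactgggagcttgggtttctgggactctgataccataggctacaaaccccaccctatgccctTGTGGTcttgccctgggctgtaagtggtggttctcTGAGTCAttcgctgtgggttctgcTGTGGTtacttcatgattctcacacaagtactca
Prf1: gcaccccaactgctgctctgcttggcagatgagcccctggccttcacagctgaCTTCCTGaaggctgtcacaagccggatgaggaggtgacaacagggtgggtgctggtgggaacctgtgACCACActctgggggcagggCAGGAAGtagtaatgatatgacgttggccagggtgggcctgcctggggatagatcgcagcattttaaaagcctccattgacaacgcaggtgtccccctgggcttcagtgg
Nkg7: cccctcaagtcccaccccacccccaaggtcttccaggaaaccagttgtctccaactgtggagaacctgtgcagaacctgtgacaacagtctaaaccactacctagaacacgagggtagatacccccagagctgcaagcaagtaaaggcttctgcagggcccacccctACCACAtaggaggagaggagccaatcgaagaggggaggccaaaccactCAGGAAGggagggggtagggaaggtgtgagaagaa

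TGTGGT occurred in 14.0% of the 32851 mouse promoter windows of this length, CAGGAAG in 10.8% and TGANTCA in 6.75%. *Gzmb* held TGTGGT at 2 places and TGANTCA at 1, and *Prf1* and *Nkg7* held TGTGGT at 1 place each together with CAGGAAG, which *Cd3e* held too. The letters TGACGTCA, bound by CREB and ATF factors, were in 1.55% of windows and in 0 of the 9. *Cd4* had no entry. A match is a description of letters and does not show binding.

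*Gzmb* (ENSMUSG00000015437, chromosome 14) had 139, 191 and 427 normalized counts in CTL tumors as lowest, median and highest, and 75.2, 223 and 287 in knockdown tumors. Replicates 4 and 5 of the knockdown group, at 92.0 and 75.2, lay below every CTL tumor, while the other 4 lay inside the CTL range. The log2 fold change was -0.29, from -1.06 to 0.48 (limma adjusted p = 0.556). The median gene of chromosome 14 had a log2 fold change of 0.38, while the medians of most other chromosomes lay near 0. With each chromosome's median removed, *Gzmb* was at -0.67 (limma adjusted p = 0.171). The chromosome 14 median was taken over 452 genes in RNA of whole tumors. Whether *Gzmb* shares that shift was not tested.

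*Prf1* (ENSMUSG00000037202, chromosome 10) had 117, 217 and 308 normalized counts in CTL tumors and 118, 242 and 273 in knockdown tumors. Both groups split into low and high tumors over the same range, and the log2 fold change was 0.03, from -0.58 to 0.64 (limma adjusted p = 0.944). *Nkg7* (ENSMUSG00000004612, chromosome 7) had 148, 223 and 444 normalized counts in CTL tumors and 142, 294 and 374 in knockdown tumors. Replicates 4 and 5 of the knockdown group were again the lowest of their group, at 142 and 163. For *Nkg7* it was 0.09, from -0.50 to 0.69 (limma adjusted p = 0.817).

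**Figure D2:**
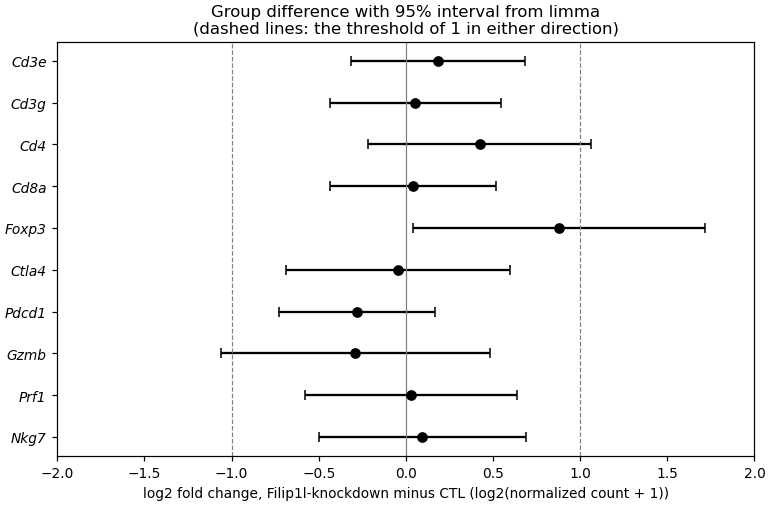
Log2 fold change of each gene (horizontal axis, knockdown minus CTL, n = 6 each) with its 95% interval from limma, and dashed lines at 1 and -1. The interval lies between the dashed lines in 7 of 10 genes, and those of *Cd4*, *Foxp3* and *Gzmb* cross one of them.

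The widths of these intervals set what could be seen. In 7 of the 10 genes the 95% interval lay wholly between -1 and 1 on the log2 scale, so that a doubling or a halving lay outside it. For *Cd4* and *Foxp3* a doubling, and for *Gzmb* a halving, lay inside the interval.

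Levels were compared between genes after dividing each value by the length of the gene's exons in kilobases. The mean over the 12 tumors was 279 normalized counts per kilobase for *Nkg7*, 145 for *Gzmb*, 145 for *Cd8a*, 132 for *Pdcd1* and 82.7 for *Prf1*. It was 63.4 for *Cd3g*, 29.98 for *Cd3e*, 27.1 for *Cd4*, 22.3 for *Ctla4* and 9.09 for *Foxp3*. *Nkg7* was above *Gzmb*, *Pdcd1* above *Prf1*, *Cd3g* above *Cd3e* and *Ctla4* above *Foxp3* in 12 of 12 tumors, and *Prf1* above *Cd3g* in 11. The other neighbours in this order traded places between tumors: *Gzmb* exceeded *Cd8a* in 7 tumors, *Cd8a* exceeded *Pdcd1* in 9, *Cd3e* exceeded *Cd4* in 9, and *Cd4* exceeded *Ctla4* in 8. The 3 cytotoxic genes, *Cd8a* and *Pdcd1* made up the upper 5 of this order, and *Cd4*, *Ctla4* and *Foxp3* the lowest 3.

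Single tumors stood apart, and over many of the 10 genes at once. CTL replicate 3 was the highest CTL tumor in 10 of 10 genes and the highest of all 12 tumors in 7. knockdown replicate 4 was the lowest of its group in 8 genes and replicate 5 in the other 2, and CTL replicates 1 and 2 were the lowest CTL tumors in 4 genes each. knockdown replicate 1 was the highest of its group in 6 genes. Between the highest and the lowest tumor the value differed from 2.62-fold for *Prf1* to 8.95-fold for *Foxp3*. With CTL replicate 3 and knockdown replicate 1 both left out, 0 of 10 genes were called and the log2 fold changes ran from -0.28 for *Pdcd1* to 0.94 for *Foxp3*.

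**Figure D3:**
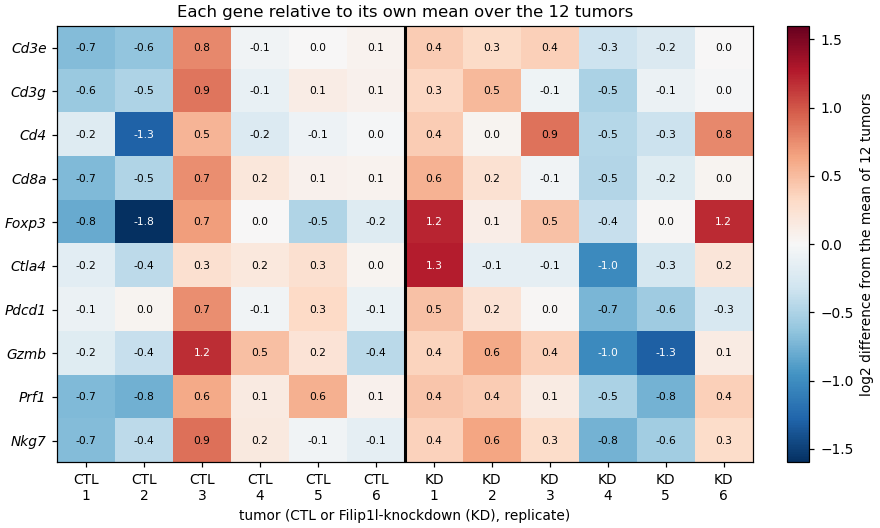
Log2 difference of each gene (vertical axis) in each tumor (horizontal axis, CTL 1 to 6 and *Filip1l*-knockdown, KD, 1 to 6) from that gene's mean over the 12 tumors, in color and as a number. Cells of 1 column share their color more than those of 1 group do, with CTL replicate 3 above the mean in all 10 genes and knockdown replicate 4 below it in all 10.

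To put numbers on this, log2 values were correlated with those of *Cd3e* over the 12 tumors after the mean of each group had been removed. Pearson's r was 0.93 for *Cd8a*, 0.92 for *Cd3g* and 0.90 for *Nkg7*, and for the 9 genes it ran from 0.58 for *Ctla4* to 0.93. Spearman's rho ran from 0.69 for *Cd4* to 0.86. After adjustment over the 87 genes compared with *Cd3e*, which were the other genes of the T and NK cell lists and *Ptprc*, the permutation p of r was under 0.05 in 8 of the 9 genes (0.0851 in *Ctla4*), and that of rho in 9 of 9. The permutations ran over all 12 tumors and not within the groups, although the group means had been removed. This can make these p-values somewhat too small. When the pair of tumors farthest from the median of *Cd3e* was left out, CTL replicates 3 and 1, r ran from 0.69 to 0.86. Within the 6 CTL tumors it ran from 0.77 to 0.99, and within the 6 knockdown tumors from 0.57 to 0.96. All 45 pairs among the 10 genes had a positive r, with a median of 0.75, the lowest being *Cd4* with *Pdcd1* at 0.54 and the highest *Cd3g* with *Cd8a* at 0.93. Values of 1 tumor share a library and a size factor.

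For each of the 10, the genes whose pattern over the tumors was most like it were sought. The search covered the 14375 genes whose mean reached 20 normalized counts, the rest of the 10 included. Given here as a description, the nearest to *Cd3g* was *Lag3*, a checkpoint receptor (r = 0.96), followed by *Cd8a* (r = 0.93). *Lag3* was also among the nearest 3 of *Cd8a* (r = 0.95). *Nkg7* had *Cd3d*, *Cd8b1* and *Trbc2* nearest, each with r = 0.95, which are genes of the T cell receptor and the CD8 coreceptor. *Gzmb* had *Irf1* (r = 0.97), *Ubd* and *Sp140* nearest, of which *Irf1* and *Ubd* are known as interferon-responsive genes. *Pdcd1* had *Ppp1r16b*, *Sh2d2a* and *Cd6*, each with r of 0.94 or 0.95. The nearest 3 of *Cd3e*, *Cd4*, *Foxp3*, *Ctla4*, *Gzmb* and *Prf1* held no gene of the T and NK cell lists, for example *Kynu* for *Ctla4* (r = 0.95) and *Ifi213* for *Cd4* (r = 0.95). *Gimap3*, which the lists do not hold, was among the nearest 3 of *Cd3e* (r = 0.93) and was the nearest of *Cd8a* (r = 0.97). Being outside the lists does not show that a gene is not a T cell gene.

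Ratios within a tumor were compared between the groups. They ask whether 1 class of T cell gene moved apart from another, and the 12 ratios were tested by exact two-sided permutation, with p-values adjusted over the 12. Against all leukocytes, *Cd3e* was 0.0609 to 0.154 of *Ptprc* in CTL tumors and 0.0634 to 0.121 in knockdown tumors. The log2 ratio differed by -0.05 (exact p = 0.855, adjusted p = 0.855). The balance of coreceptors, *Cd8a* over *Cd4*, was 3.51, 5.64 and 8.93 as lowest, median and highest in CTL tumors and 2.62, 5.27 and 5.76 in knockdown tumors. Replicates 3 and 6 of the knockdown group, at 2.62 and 3.00, were below all CTL tumors, and the log2 difference was -0.38 (exact p = 0.171, adjusted p = 0.293).

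The smallest p-values belonged to ratios with *Foxp3* and *Pdcd1*. *Ctla4* over *Foxp3* had a lowest, median and highest ratio of 1.02, 1.89 and 3.80 in CTL tumors and 0.674, 0.985 and 1.38 in knockdown tumors. In 6 of 6 knockdown tumors it was below the CTL median and in 3 below every CTL tumor, with a log2 difference of -0.93 (exact p = 0.0108, adjusted p = 0.0909). *Pdcd1* over *Cd3e* was 1.86, 2.34 and 3.33 in CTL tumors and 1.58, 1.69 and 2.17 in knockdown tumors. It too was below the CTL median in 6 of 6 knockdown tumors and below every CTL tumor in 4, with a log2 difference of -0.46 (exact p = 0.0152, adjusted p = 0.0909). *Foxp3* over *Cd3e* was 0.125, 0.265 and 0.319 in CTL tumors and 0.264, 0.344 and 0.704 in knockdown tumors. In 4 of 6 knockdown tumors it was above every CTL tumor, with a log2 difference of 0.70 (exact p = 0.0260, adjusted p = 0.104). None of the 12 ratios passed the adjustment. Without CTL replicate 3, the CTL tumor with the lowest ratio of *Ctla4* to *Foxp3*, that ratio did, at -1.10 (exact test, adjusted p = 0.0260). Without CTL replicate 2, the CTL tumor with the highest, it differed by -0.74. With 1 tumor left out at a time, its adjusted exact p ran from 0.0260 to 0.208.

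*Gzmb* over *Cd3e* was lower than the CTL median in 6 of 6 knockdown tumors, and its log2 difference was -0.47 (exact p = 0.117, adjusted p = 0.281). *Foxp3* over *Cd4* differed by 0.46 (exact p = 0.0693, adjusted p = 0.208). The remaining 5 ratios, of *Cd4*, *Cd8a*, *Ctla4*, *Prf1* and *Nkg7* to *Cd3e*, differed by -0.23 to 0.24 on the log2 scale, with adjusted exact p-values of 0.293 and above.

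**Figure D4:**
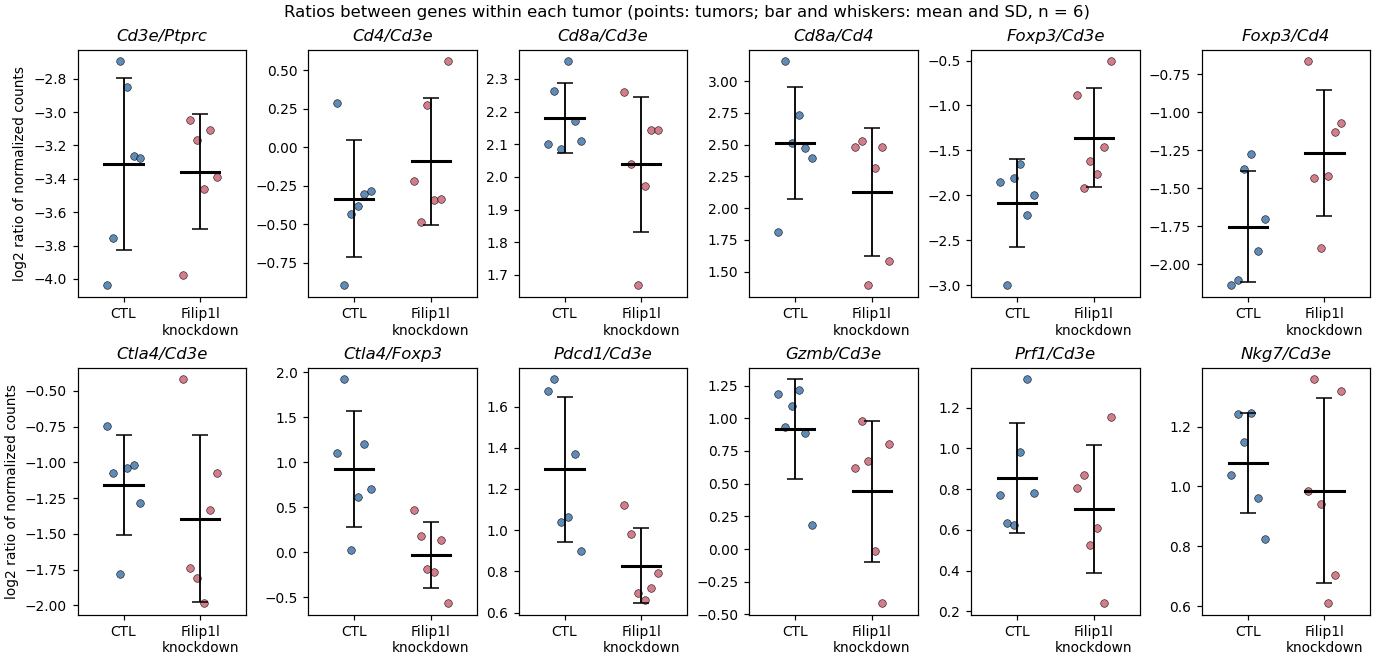
Log2 ratios of normalized counts between pairs of genes within a tumor (vertical axis) in 6 CTL and 6 knockdown tumors, with 1 point per tumor and a bar and whiskers for the mean and SD. The groups overlap in all 12 panels, and the CTL median lies above all 6 knockdown tumors for *Ctla4*/*Foxp3*, *Pdcd1*/*Cd3e* and *Gzmb*/*Cd3e*.

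The other genes of these pathways were read from lists that held the 10 as well, 87 genes in all. Of them 2 rose and 4 fell by both thresholds in knockdown tumors, beside 6.20% of all genes that rose and 3.97% that fell. With the adjusted p alone, 8 rose and 10 fell, beside 21.1% and 20.7% of all genes. Of the 16 genes of the T cell receptor complex and its signalling, 0 changed, and the median log2 fold change was 0.23, with *Trac*, the constant region of the alpha chain, at 0.28 and *Cd28*, a costimulatory receptor, at -0.44. Of the 3 coreceptor genes and of the 8 helper T cell factors and cytokines, 0 were called. Among the latter, *Tbx21*, the factor of type 1 helper cells, had a log2 fold change of 0.01 and *Ifng*, their cytokine, of 0.12, and neither passed.

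Among 11 regulatory T cell genes 0 were called by both thresholds. *Tnfrsf18* (GITR) was higher by 0.54, *Ikzf2* (Helios) lower by a log2 fold change of -0.39 and *Lrrc32* (GARP) by -0.53 with the adjusted p alone, while *Il2ra*, the receptor chain that regulatory T cells carry in quantity, was at 0.32 (limma adjusted p = 0.562). Over the 11 genes the median log2 fold change was 0.04, with a range from -0.53 to 0.88.

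*Tigit*, a checkpoint receptor of T and NK cells, was at 920.2, 1013 and 1244 normalized counts as lowest, median and highest in CTL tumors and at 236, 289 and 483 in knockdown tumors. No knockdown tumor reached the CTL range, and the log2 fold change was -1.80 (limma adjusted p = 6.8e-07). *Tcf7*, which encodes TCF1 of naive and memory-like T cells and also acts in Wnt signalling in other cells, was at 1132, 1248 and 1542 in CTL tumors and 223, 287 and 449 in knockdown tumors. Again the groups did not overlap, with a log2 fold change of -2.10 (limma adjusted p = 9.41e-08).

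*Gzmc*, a granzyme of strongly stimulated killer cells and a neighbour of *Gzmb* on chromosome 14, was at 290, 403 and 575 in CTL tumors and at 81.3, 143 and 187 in knockdown tumors. It fell by 1.63 on the log2 scale (limma adjusted p = 2.94e-05), while the other 11 cytotoxic genes, *Gzmb*, *Prf1* and *Nkg7* among them, were not called. *Klra4*, a Ly49 receptor of NK cells, fell by 1.28 (limma adjusted p = 5.6e-05), while *Klrd1*, *Klrk1* and the other 6 NK receptor genes in the list were not called. With the adjusted p alone, *Eomes*, a transcription factor of killer and NK cells, fell by 0.80 (limma adjusted p = 0.00722), and *Cd244a*, a receptor of NK cells, by 0.89 (limma adjusted p = 0.00456). Reads of *Klra4* may be shared with its near copies in the Ly49 family. *Lag3* and *Havcr2* (TIM-3), checkpoint receptors like *Tigit*, were at -0.08 and -0.26 and did not pass.

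*Trdv4*, a variable segment of the gamma-delta T cell receptor, was at 2.65 to 13.3 in CTL tumors and 21.2 to 71.8 in knockdown tumors and rose by 2.59 (limma adjusted p = 9.2e-05). The lowest CTL value, in replicate 6, was at the floor of 3 reads. With a pseudocount of 8 the log2 fold change of *Trdv4* was 1.83. It was 2.21 with the median of each chromosome removed, *Trdv4* being on chromosome 14. Whether *Trdv4* shares the shift of that median was not tested. The constant region of the same receptor chain, *Trdc*, was at 11.95 to 20 in CTL tumors and 2.94 to 28.2 in knockdown tumors, with a log2 fold change of 0.03 (limma adjusted p = 0.964).

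These 5 genes were compared with *Cd3e* from tumor to tumor as the 10 were. After the group means were removed, r with *Cd3e* was 0.43 for *Tcf7*, 0.18 for *Tigit*, 0.13 for *Gzmc*, -0.38 for *Trdv4* and -0.49 for *Klra4*, with permutation p-values, adjusted over the same 87 genes, from 0.149 to 0.713. The corresponding rho were 0.62, 0.23, 0.14, -0.51 and -0.41 in the same order. Without the tumors farthest from the median of *Cd3e*, r was 0.52, 0.33, 0.09, -0.53 and -0.15 in that order. Within the 6 CTL tumors it was 0.44, -0.32, -0.25, -0.39 and -0.69. Within the 6 knockdown tumors it was 0.55, 0.63, 0.69, -0.38 and 0.12, so that *Tigit* and *Gzmc* differed in sign between the groups. In knockdown tumors those genes lay within the range of the 10, which was 0.57 to 0.96. The level in CTL tumors, per length, was 1153 normalized counts per kilobase for *Tigit*, 489.5 for *Tcf7*, 463 for *Gzmc*, 251 for *Klra4* and 16.4 for *Trdv4*. The same quantity was 28.6 for *Cd3e*, 123 for *Lag3* and 271 for *Nkg7*. Whether the values of *Tigit*, *Tcf7*, *Gzmc* and *Klra4* came from T and NK cells or from other cells of the tumor cannot be told apart in RNA of whole tumors.

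**Figure D5:**
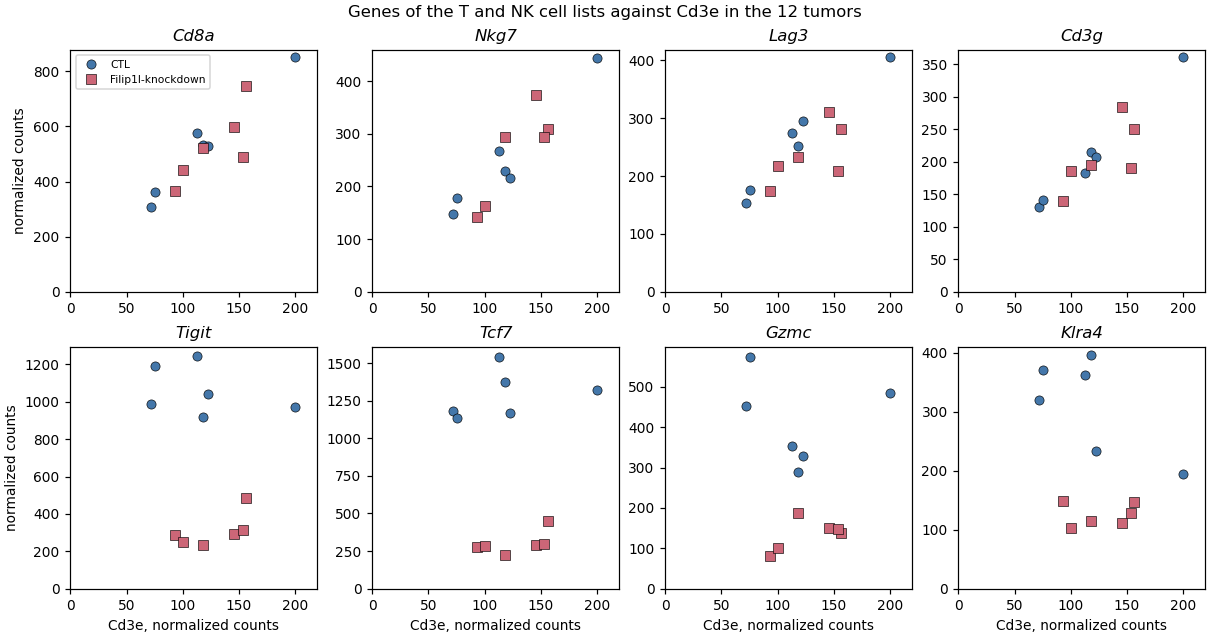
Normalized counts of 8 genes (vertical axes) against *Cd3e* (horizontal axis) in 6 CTL tumors (circles) and 6 knockdown tumors (squares). *Cd8a*, *Nkg7*, *Lag3* and *Cd3g* rise with *Cd3e* over the same range in both groups, while *Tigit*, *Tcf7*, *Gzmc* and *Klra4* form a separate band for each group.

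Of the 18 genes of the checkpoint list, 4 rose and 1 fell with the adjusted p alone, beside 21.1% and 20.7% of all genes. The median log2 fold change of the list was -0.04. On its ligand side, *Pvr* and *Nectin2*, ligands of TIGIT, rose by 0.67 (limma adjusted p = 0.000376) and 0.77 (limma adjusted p = 6.15e-05) with the adjusted p alone. *Lgals9*, a ligand of TIM-3, and *Tnfrsf14*, the ligand of BTLA, rose by 0.51 and 0.62. *Cd274*, which encodes the PD-1 ligand PD-L1, was at 974 ± 182 normalized counts in the 6 CTL tumors and 790.1 ± 324 (SD) in the 6 knockdown tumors, with a log2 fold change of -0.37 (limma adjusted p = 0.184). These ligands are carried by tumor cells and myeloid cells as well as by lymphocytes. *Pdcd1lg2*, *Cd80* and *Cd86* of the same list were at 0.17, -0.35 and 0.02 and did not pass.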

How the data were processed

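RNA of 12 tumors, 6 CTL and 6 *Filip1l*-knockdown, was sequenced. Per the submitters' processing notes and the paper's methods, the authors used bcl2fastq 2.20, Trimmomatic 0.36, STAR 2.5.2b, featureCounts of Subread 1.5.2 and the mm10 build, and divided the counts by DESeq2 size factors, so the deposited values are a normalized signal. Whether counting used strand is not given in the sources used here. All 12 tumors had a group in their labels, which give no batch.

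Values were compared as log2(value + 1) in limma 3.58.1 (R 4.3.3), letting the variance follow the mean, over all 15687 genes in 1 fit with Benjamini-Hochberg adjustment. Fold changes on this scale understate changes of low genes. Asking for a mean of 5 normalized counts removed 0 genes, since the lowest mean was 9.28. Single genes and ratios were also tested by exact permutation over the tumors and correlations with 100000 permutations (Python 3.11.15, scipy 1.17.1). The model fit was also run on simulated counts with known changes. Spread beyond counting error was set the same for every gene there, so that run does not show how well changes in the 10 genes would be seen. Symbols, positions and exon lengths came from GENCODE vM21 (15655 of 15687 identifiers matched), and promoters from RefSeq on GRCm38.p6, with 9 of the 10 genes matched.

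Values were whole multiples of 1 read's worth in 100% of cases (tolerance 0.01). Whole reads were used for 9 tumors, in which edgeR 4.0.16 ran its quasi-likelihood test. For the other 3, CTL replicates 1 and 4 and *Filip1l*-knockdown replicate 1, the step lay within 1% of 1 and was not used. Replicate numbers did not pair the tumors.

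Genes named are the 10, *Filip1l*, members of 18 fixed lists past both thresholds or within a list described, and the 3 genes most like each of the 10. *Ccdc22*, *Ppp1r3f*, *Flicr* and *Gm48719* were named after their values were seen, for sharing exons. Some genes of the lists are not reported here. The 10 genes and the lists were chosen with earlier results of these data known. Alternatives tried were a pseudocount of 0.5 or 8, a minimum mean of 20 or none, scaling to the 75th percentile, to the total or to *Ptprc*, limma without a trend, the replicate block, removal of chromosome medians, and each tumor left out. The fits on 9 tumors and the fit without both tumors that stand apart were chosen after seeing the data. The depth limits precision for low genes such as *Foxp3*, and 3 reads per library were taken as the floor, which covers counting error only.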

Additional observations from a re-analysis of the deposited data

Results flagged for a closer look

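Among 56 groups of 6 tumors tested for a tumor far from its neighbours (by Dixon's test of the gap to the nearest tumor against the group's range), 4 had one. About 1 in 20 groups does so by chance. *Cd3g* was at 361 normalized counts in CTL replicate 3, and the next CTL tumor was at 215. *Ctla4* was at 117 in *Filip1l*-knockdown replicate 1, and the next knockdown tumor was at 55.9. *Tcf7* was at 449 in the same knockdown tumor, with the next at 299, and *Tigit* at 483, with the next at 313. In that tumor *Ptprc* was at 2464 normalized counts, beside 864 to 1377 in the other knockdown tumors.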

How the results depend on the processing

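Each tested alternative left 0 of the 10 genes called except 1, without CTL replicate 3, where *Foxp3* was called, so that the count ran from 0 to 1. Between 6 and 8 genes of the lists were called over all alternatives, and between 1352 and 1713 of all genes. Directions near 0 turned. Scaled to the same total, *Prf1* was at -0.010. Relative to *Ptprc*, which moved the median of all genes to -0.22, *Cd3e* was at -0.047, *Cd3g* -0.18, *Cd8a* -0.19, *Prf1* -0.20 and *Nkg7* -0.14. With edgeR on 9 tumors *Cd3e* was at -0.10, *Cd3g* -0.23, *Cd8a* -0.25, *Prf1* -0.22 and *Nkg7* -0.10, and with limma on the same 9 they were at -0.024, -0.17, -0.19, -0.19 and -0.081, so that both tools gave these directions in the 9 tumors. Leaving out 1 tumor at a time gave -0.060 to 0.23 for *Cd3g*, -0.10 to 0.20 for *Cd8a*, -0.12 to 0.19 for *Prf1*, -0.035 to 0.28 for *Nkg7*, -0.30 to 0.15 for *Ctla4* and 0.60 to 1.10 for *Foxp3*. The log2 ratio of *Cd3e* to *Ptprc* ran from -0.19 to 0.078 and that of *Ctla4* to *Foxp3* from -1.10 to -0.74. Replicate numbers did not pair the tumors (correlations from -0.27 to 0.10, with 0 of 6 tumors most like their own number). With the replicate block 1554 of all genes were called, 0 of the 10 and 6 of the lists, and *Foxp3* had a log2 fold change of 0.88 (limma adjusted p = 0.0867). *Tcf7*, *Gzmc*, *Klra4*, *Tigit* and *Trdv4* kept their direction and passed both thresholds in every alternative run.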

Other observations

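Genes of other immune cells were counted in the same tumors. Of 10 B cell and plasma cell genes, 4 were in the table, and *Cd79b*, a chain of the B cell receptor complex, rose by 1.01 on the log2 scale (limma adjusted p = 0.0115), while *Jchain* and *Mzb1* of plasma cells were at 0.62 and 0.96 and did not pass. *Cxcl13*, a chemokine that draws B cells and follicular helper T cells, rose by 1.17 (limma adjusted p = 0.0256). Of 10 macrophage genes 0 and of 9 dendritic cell genes 0 were called, beside 10.2% of all genes. Among 8 mast cell and basophil genes only *Mcpt4* was called, at 2.61 (limma adjusted p = 0.000221), with *Cpa3* and *Kit* at -0.27 and 0.07.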
